A study of Drosophila melanogaster with 2 samples.

Results

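The 10 genes described here encode insulator and boundary proteins of Drosophila melanogaster. They are Chro, Cp190, BEAF-32, CTCF, su(Hw), mod(mdg4), pita, ZIPIC, Dref and pzg, taken by name from 13945 protein-coding genes on the 6 chromosome arms X, 2L, 3L, 3R, 4 and the right arm of chromosome 2. Protein bound to DNA was mapped by chromatin immunoprecipitation and sequencing (ChIP-seq) with an antibody to GFP in whole prepupae, the stage at the start of metamorphosis. There was 1 group of 2 biological replicates, which the labels number 2 and 3, with males and females pooled and the age not known. All animals carried a transgene for CG6854 with GFP fused to its C terminus. The labels name the target CTPsyn, the enzyme CTP synthase, and the RefSeq gene table gives CG6854 as a synonym of Ctps and also of CG45071. With 1 group there was no comparison between conditions, and control libraries were not analysed here. The labels name whole animals and no cell type, so the tissue behind a peak cannot be told apart.

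Insulators are DNA elements at which bound proteins limit contact between enhancers and promoters on their opposite sides and mark borders of chromosome domains. In flies a set of DNA-binding proteins (BEAF-32, CTCF, su(Hw), pita and ZIPIC) recognises the elements and recruits the cofactors Cp190, mod(mdg4) and Chro. Dref activates genes of growth and replication through the DNA replication-related element (DRE), whose sequence overlaps that of BEAF-32 sites, and pzg is a partner of both Dref and Chro. The genes of these proteins, not the sites to which their products bind, are examined here.

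A summit is the position of the highest signal in a peak. A gene was counted as having a promoter peak where a summit lay within 500 bp of any of its annotated start sites. The authors' list of reproducible peaks, cut at a threshold on the irreproducible discovery rate (IDR), held 5703 summits, with signal values from 136.3 to 2488 and a median of 200.1. They were the 5703 strongest summits of the pooled list, which was called on both replicates together. The pooled list was made as input for the IDR step and holds background as well as peaks. The signal value is the authors' own score for each peak, with no stated scale, and is used only to describe and rank peaks within a list. The lists give no read counts, so the depth of the libraries is unknown. Of the 10 genes, 4 had a promoter peak, namely Chro, Dref, Cp190 and pzg, against 20.0% of all protein-coding genes. The gene mod(mdg4) had peaks inside it and none at its start, so 5 of the 10 genes had a peak in the gene or at a start site, against 22.9% of all protein-coding genes. BEAF-32, CTCF, su(Hw), pita and ZIPIC had none. The 5 genes with a peak held 8 peaks, of which 5 were promoter peaks.

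Each of the 4 genes with a promoter peak starts back to back with another protein-coding gene. The stretches between the 2 starts are shown first, because these peaks cover them and cannot be given to 1 gene of a pair. They are written 5′ to 3′ on the strand of the insulator gene, so that its outermost start comes just after the last base, and capitals mark matches to CGATA, the core of BEAF-32 sites, on either strand. The sequences are RefSeq's, on the Release 6 genome (dm6).
Chro to Ssl1, chr3L:22878985-22879088, minus strand: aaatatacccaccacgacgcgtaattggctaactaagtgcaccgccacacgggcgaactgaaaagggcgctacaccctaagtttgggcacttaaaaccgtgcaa
Cp190 to CG4338, chr3R:15275242-15275521, minus strand: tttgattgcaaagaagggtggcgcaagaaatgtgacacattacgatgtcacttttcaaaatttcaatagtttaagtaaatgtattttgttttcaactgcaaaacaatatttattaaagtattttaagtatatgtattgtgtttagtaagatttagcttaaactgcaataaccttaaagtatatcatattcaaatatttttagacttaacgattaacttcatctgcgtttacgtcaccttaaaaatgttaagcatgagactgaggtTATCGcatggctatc
Dref to RpL13, chr2L:9967230-9967312, minus strand: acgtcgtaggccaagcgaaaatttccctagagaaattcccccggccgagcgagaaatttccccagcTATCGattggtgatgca
pzg to CG12974, chr3L:21285963-21286098, plus strand: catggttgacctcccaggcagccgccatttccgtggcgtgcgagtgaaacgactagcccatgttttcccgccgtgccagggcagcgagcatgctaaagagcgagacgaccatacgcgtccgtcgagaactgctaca
Their lengths are 104, 280, 83 and 136 bp, and the peaks cover 103, 256, 83 and 136 bp of them. A CGATA match lay in the stretch at Cp190 and in that at Dref, and none lay in those at Chro and pzg. None of the 4 held a match to the DRE sequence TATCGATA or to any other motif searched.

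Chro encodes Chromator, a chromodomain protein of decondensed interband chromatin. Its promoter peak lay at 3L:22878690-22879087, with a signal of 1493 in the IDR list. The signal was 606.4 in replicate 2 and 882.1 in replicate 3. It was by far the strongest peak of the 10 genes in both replicates. It ranked 21 of 5703 in the IDR list, 27 in replicate 2 and 19 in replicate 3. Among the 2785 protein-coding genes with a promoter peak, Chro ranked 14 by its strongest one. The summit lay 85 bp downstream of the outermost start of Chro, in its annotated 5′ UTR, and 190 bp from the start of Ssl1, which encodes a subunit of the repair and transcription factor TFIIH. A weaker summit at a more internal start of Chro, with a signal of 66.0 in the pooled list, did not reach the IDR list.

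pzg encodes Putzig, also called Z4, a zinc-finger protein that accompanies Chromator on interbands. Its promoter peak at 3L:21285961-21286128 had a signal of 254.7 and ranked 1718 in the IDR list. The signal was 85.96 in replicate 2 and 182.7 in replicate 3, at ranks 3928 and 1028. Its ranks thus lay further apart than those of any other of the 7 peaks found in both replicates. The replicate 2 summit lay 94 bp from the IDR summit. The IDR summit lay 80 bp upstream of pzg and 57 bp from the start of CG12974.

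Cp190 encodes a zinc-finger protein with a BTB domain, the cofactor that most fly insulator proteins share. Its promoter peak lay at 3R:15275266-15275569 with a signal of 524.5, rank 341. The replicates gave 240.6 and 276.0, at ranks 334 and 422, so this peak stood high in both. The summit lay 169 bp upstream of Cp190 and 112 bp from the start of CG4338, between the 2 starts. The DNA there was poor in G and C, with 19.8% within 50 bp of the summit. Of all IDR summits, 1.39% had a GC share that low or lower, and the median was 43.6%. The summit of pzg stood at the other end, at 62.4%, and 98.1% of summits were at or below it.

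Dref encodes the DRE-binding factor. Its promoter held 2 overlapping peaks, and both are also promoter peaks of RpL13, a gene of the large ribosomal subunit. The stronger, at 2L:9967160-9967503, had a signal of 664.0 and ranked 182, with 301.2 in replicate 2 and 366.6 in replicate 3. Its summit lay 2 bp from the start of RpL13 and 86 bp upstream of Dref. The weaker, at 2L:9967300-9967729, had a signal of 167.1 and ranked 4041. It had a signal of 70.16 in replicate 2 and no summit within 100 bp in replicate 3. Its summit lay 286 bp upstream of Dref, beyond the start of RpL13. Which of the genes these peaks belong to was not tested, and without Dref 3 of the other 9 genes had a promoter peak.

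**Figure D1:**
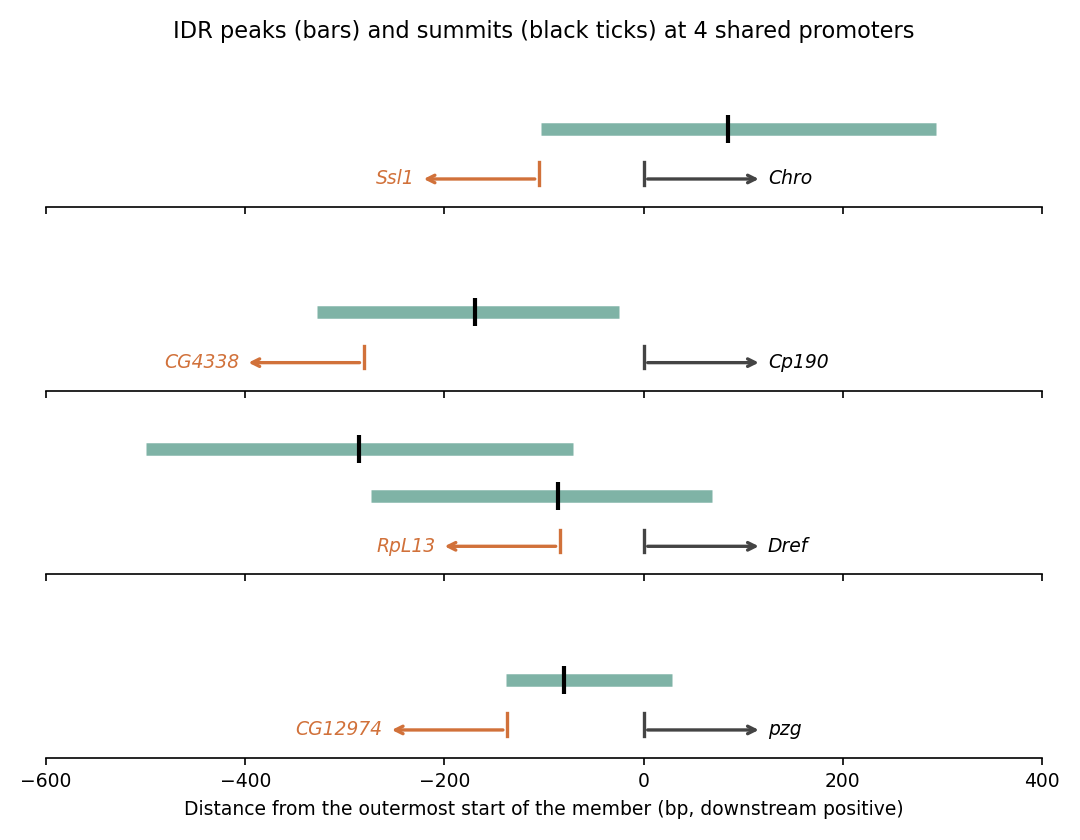
Peaks of the IDR list at the 4 promoters, with the distance in bp from the outermost start of Chro, Cp190, Dref and pzg on the x axis. Bars span the peaks, black ticks are summits, and arrows show the direction of transcription of the insulator gene (grey) and its neighbour (orange). The summit lay downstream of the Chro start, and between the 2 starts at Cp190 and pzg. At Dref it lay 2 bp from the start of RpL13.

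Back-to-back starts were found at all 4 genes with promoter peaks. The shares given next for neighbouring starts count starts on either strand. No share for back-to-back starts alone was computed. All 5 promoter peaks lay within 500 bp of the start of another protein-coding gene. Of the 2732 IDR summits at protein-coding starts, 20.1% (548) lay that near the starts of 2 or more genes. That share is by summit. By gene, 1246 of the 2785 genes with a promoter peak had another protein-coding start within 500 bp of 1 of theirs. Counted separately, after the values were seen, 6 of the 10 genes had another protein-coding start within 500 bp of 1 of theirs, and 4 of these had a promoter peak, against 28.9% of the 4309 such genes. The other two, su(Hw) and pita, had none. Of the 4 genes with no such neighbour, which were BEAF-32, CTCF, mod(mdg4) and ZIPIC, 0 had a promoter peak, against 16.0% of 9636 such genes. With each peak given only to the nearest start, Chro alone of the 10 genes kept a promoter peak, against 16.7% of all protein-coding genes. The neighbour was nearer to the IDR summit at Cp190, Dref and pzg. Summits of the replicates were placed differently. In both, pzg itself was the nearer start, at 14 bp in replicate 2 and 61 bp in replicate 3. Cp190 was nearer only in replicate 3, at 134 bp, and Dref in neither.

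mod(mdg4) encodes a family of BTB proteins, among them the partner of su(Hw) on the gypsy insulator, and its messages are completed by trans-splicing of separately transcribed last exons. The gene spans 3R:21350846-21377401 on the minus strand, 26.6 kb, with 22 annotated transcripts that share 1 start site. The annotation also lists 23 short pre-mod(mdg4) genes inside it, the sources of the trans-spliced exons, 14 on the strand of mod(mdg4) and 9 on the other. These start at 7 distinct sites, of which 4 lay within 500 bp of an IDR summit, from only 2 peaks. Because so many of the genes share starts, 13 of the 23 count as having a promoter peak from these 2 peaks. The share of all protein-coding genes was 20.0%, and that of all start sites was not computed.

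The strongest peak in mod(mdg4), at 3R:21365375-21365574, had a signal of 449.2, with 201.7 in replicate 2 and 246.9 in replicate 3. It ranked 506 in the IDR list, 544 in replicate 2 and 519 in replicate 3, close ranks throughout. Its summit lay 11932 bp downstream of the mod(mdg4) start, 19 bp from the start of pre-mod(mdg4)-E on the same strand. The start that 7 pre-mod(mdg4) genes on the other strand share, among them pre-mod(mdg4)-W, was 140 bp away. So this peak too lay by back-to-back starts. A second peak at 3R:21373382-21373811 had a signal of 213.4, with 83.16 and 129.4 in the replicates. It lay 22 bp from the shared start of pre-mod(mdg4)-N, pre-mod(mdg4)-AA and pre-mod(mdg4)-O.

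The third peak in mod(mdg4), at 3R:21376356-21376485, had a signal of 258.6, with 88.01 in replicate 2 and 172.3 in replicate 3. It alone of the 8 peaks had no start of another protein-coding gene within 500 bp, and it lay in an intron 971 bp downstream of the mod(mdg4) start. It alone of the 8 also had a match to GAGAG, the repeat bound by GAGA factor, which 21.7% of all IDR summits held within 50 bp. The DNA within 50 bp of this summit is shown for that repeat, in capitals, on the minus strand.
mod(mdg4) intron, chr3R:21376380-21376480, minus strand: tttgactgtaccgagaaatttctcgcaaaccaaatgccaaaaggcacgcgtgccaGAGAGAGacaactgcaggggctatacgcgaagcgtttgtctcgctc
At the start of mod(mdg4) itself the pooled list held a summit with a signal of 76.67, under the lowest signal of the IDR list. In all, 11 pooled summits lay in mod(mdg4) or at its start, and 8 of them did not reach the IDR list. Some of the 8 may be background, as their deposited −log10 q-values ran from 0.5 to 3.71. The strongest of these 8, with a signal of 112.1, lay at the shared start of pre-mod(mdg4)-T and pre-mod(mdg4)-Z. Of the 471 protein-coding genes of 20 to 35 kb, 23.4% held 3 or more IDR summits, as mod(mdg4) did, and the median was 1.

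**Figure D2:**
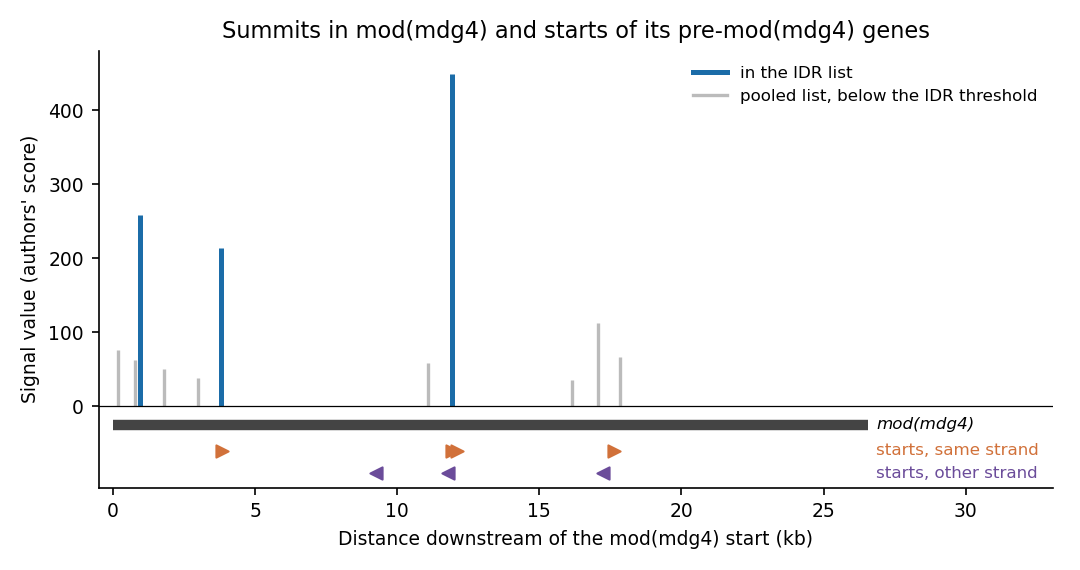
Summits of the pooled list in mod(mdg4), with the distance downstream of its start in kb on the x axis and the authors' signal value on the y axis. Blue lines are summits that are also in the IDR list (213.4 to 449.2) and grey lines are summits below the IDR threshold. The triangles mark starts of the pre-mod(mdg4) genes on the same strand (orange) and on the other strand (purple), and the 2 summits of 213.4 and 449.2 stand at such starts.

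The 5 genes with no peak in the IDR list encode the DNA-binding insulator proteins BEAF-32, CTCF, su(Hw), pita and ZIPIC. All except ZIPIC had weaker summits at a start site in the pooled list, which held 30000 entries called with relaxed settings. Because that list includes background, such a summit need not be a site of binding. With mod(mdg4), 5 of the 6 genes without an IDR promoter peak had such a summit. Over all 10 genes the count was 9, against 48.1% (6712) of all protein-coding genes. Genes with an IDR promoter peak are in these counts by construction. They are 4 of the 9 and 2785 of the 6712. Among the other 5 of the 9, the strongest promoter summits of su(Hw) and pita had the −log10 q-value of the IDR peaks, 4.18. Those of mod(mdg4), BEAF-32 and CTCF had 2.07, 2.03 and 1.89.

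Just under the threshold were su(Hw), which encodes the zinc-finger protein of the gypsy insulator, and pita, a zinc-finger protein with a zinc-finger-associated (ZAD) domain that recruits Cp190. The lowest signal in the IDR list was 136.3. At su(Hw) (3R:14304455-14308589) the strongest promoter summit of the pooled list had a signal of 130.3, rank 6135. It lay inside the gene, 425 bp from the start. The replicates gave 69.56 and 70.03 there, at ranks 5718 and 6382. At pita (2R:23548967-23554712) the strongest had a signal of 129.6, rank 6193, with 55.25 and 58.96 in the replicates. It lay inside the gene, 427 bp from the outer start. Nearest above the threshold among the 10 genes was the weaker Dref peak, with 167.1.

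Another summit of pita differed between the replicates. It lay at an internal start, which is also near the start of Dcp-1, a caspase gene, and had a signal of 115.5 in the pooled list. In replicate 2 the summit there had a signal of 87.73, rank 3777, and in replicate 3 the strongest within the same promoter had 33.34, rank 17997.

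BEAF-32, which encodes the boundary-element-associated factor, showed the opposite order. Its strongest promoter summit in replicate 3 lay at an internal start (2R:14771096-14771505), with a signal of 113.9, rank 2599. The nearest in replicate 2, 29 bp from that start, had 43.87, rank 11126. The pooled list held no summit there, and its single promoter summit of BEAF-32, at the outermost start, had a signal of 75.62, rank 12968.

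CTCF encodes the fly form of the zinc-finger insulator protein that vertebrates share. Within 500 bp of its start (3L:7353578-7356713, minus strand) the pooled list held a summit with a signal of 73.04 and another with 56.91. The strongest promoter summits of the replicates had 33.63 and 45.45, at ranks 15327 and 12159. ZIPIC (3R:30035240-30036870), another ZAD zinc-finger gene whose product recruits Cp190, had no summit in or at the gene in the pooled list or in either replicate. The nearest IDR summit, at Sry-delta, was 6505 bp from its start. For the other genes with no peak, the nearest IDR summit lay 1164 bp from a start of BEAF-32, 3210 bp from that of CTCF, 7596 bp from that of su(Hw) and 15557 bp from a start of pita.

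**Figure D3:**
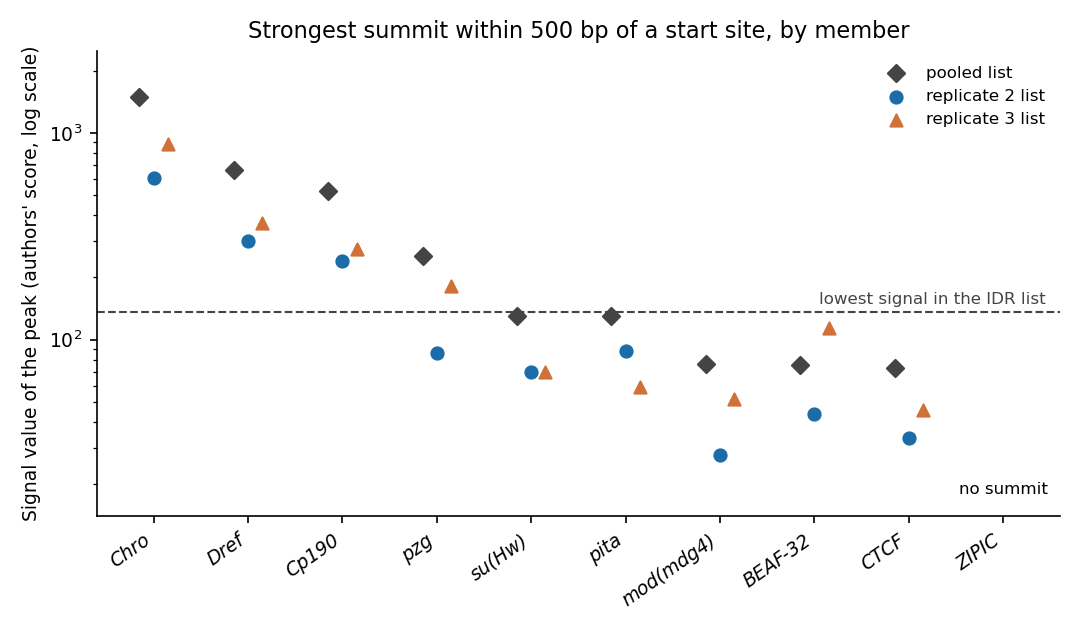
Signal value (authors' score, log scale) of the strongest summit within 500 bp of a start site of each of the 10 genes, in the pooled list and in each replicate's list, ordered by the pooled value. Signal values were read within each list, and the dashed line, the lowest signal of the IDR list (136.3), applies to the pooled values. Chro, Dref, Cp190 and pzg lie above it, su(Hw) and pita just below, and ZIPIC had no summit.

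The replicates were also read alone, each by its 5703 strongest summits. In replicate 2 such a summit lay at a promoter of 5 of the 10 genes and of 20.5% of all protein-coding genes. In replicate 3 the count was also 5, against 19.1%. Chro, Cp190, Dref and pzg were counted in both. The fifth was pita in replicate 2 and BEAF-32 in replicate 3. The lists were scored separately, so the replicates are set side by side by rank. Of the 7 peaks matched within 100 bp in both replicates, 5 stood higher in the list of replicate 3 and 2, the Cp190 peak and the stronger Dref peak, in that of replicate 2. Over all 5217 IDR summits matched in both, 51.2% stood higher in that of replicate 3.

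**Figure D4:**
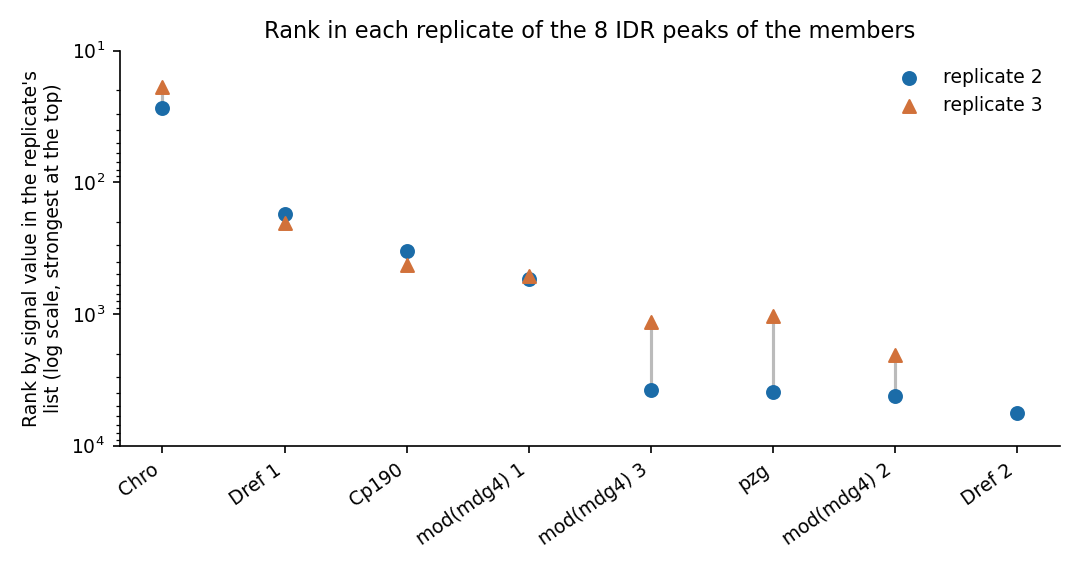
Rank by signal value within the list of replicate 2 (circles) and of replicate 3 (triangles) at the 8 IDR peaks of the 5 genes, on a log scale with the strongest at the top, ordered by signal in the IDR list. Numbers after a name tell apart peaks of 1 gene, and grey lines join the replicates. The ranks lay furthest apart at pzg (3928 and 1028), and the weaker Dref peak had no matched summit in replicate 3.

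Motifs known for some of these proteins, for GAGA factor and for core promoters were searched, and so were E boxes. The search covered both strands within 50 bp of the 8 summits, and the matches are a description, not binding sites. CGATA lay at 1 of 8 summits, that of Chro, 5 bp from it, against 11.9% of all IDR summits and 13.8% of those at protein-coding starts. The DRE sequence TATCGATA, which contains CGATA, was at 0 of 8, against 0.491% of all IDR summits. Within 100 bp, 3 of 8 summits held CGATA (Chro, Dref and pzg), against 23.0%. The E box CACGTG was at the weaker Dref summit, against 1.03% of all. At 0 of 8 were the CTCF core AGGNGGCGC (0.368% of all), the su(Hw) core GCATACTT (0.473%), core promoter motif 1, GGTCACACT (0.386%), the E box CAGCTG (5.75%) and TATAAA (11.8%).

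Other genes of insulator function were read in the same way. Of 25 further genes for insulator, boundary or promoter-binding proteins, 8 had a promoter peak (32.0%), against the 20.0% of all protein-coding genes, and 3 more had a peak only inside the gene, namely l(3)mbt, JIL-1 and zf30C. The strongest was at shep, which encodes an RNA-binding protein that limits gypsy insulator function in the nervous system of the fly (signal 472.5, with 207.5 in replicate 2 and 267.1 in replicate 3). The gene that encodes the nuclear pore proteins Nup98 and Nup96 (294.3), M1BP, whose product binds core promoter motif 1 (278.9), and Trl, the gene of GAGA factor (261.5), followed. The bromodomain gene fs(1)h had 213.9, with no matched summit in replicate 3. The helicase gene Rm62 had 178.6, Clamp, which encodes a GA-repeat-binding zinc-finger protein, had 150.5, and zeste (z) had 137.8, near the lowest signal in the list. Of these 8 peaks, 5 were shared with another gene. The other genes were mbc at the nuclear pore gene, CG8202 at M1BP, CG42507 at Trl, mys at fs(1)h and boi at z. Of IDR summits at protein-coding starts 20.1% lay by 2 or more genes, a share of summits and not of genes.

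Cohesin and condensin are ring complexes that fold chromosomes, and of 17 genes for them and their regulators 2 had a promoter peak (11.8%), against the 20.0% of all protein-coding genes. These were pds5, a cohesin regulator (signal 288.8, with 83.65 in replicate 2 and 203.2 in replicate 3), and eco, a cohesin acetyltransferase gene (249.8, with 140.2 and 100.6). Both peaks were shared, with Mppe and with lark, against the same 20.1% of summits. None of the core subunit genes SMC1, SMC3 and vtd had a peak in the gene or at a start site. No test was made of the difference between these lists, the 10 genes and other genes.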

How the data were processed

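ChIP-seq peak lists of 2 biological replicates of 1 group were used. Per the notes deposited with the files, relaxed peaks were called for each replicate and on both alignments together, against a control, with the IDR list taken from them. The aligner and caller were not given in the sources used here. Signal values are the authors' deposited score of a peak. The deposited −log10 q-value, equal for all IDR peaks, was not used to rank. Lists on dm3 were not used.

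Summits on 6 chromosome arms were assigned with Ensembl release 115 on dm6 coordinates, in Python 3.11.15 with pandas 2.3.3. Replicate summits were matched within 100 bp. The counting was checked on simulated summits at genes far from any other protein-coding start, so the check did not cover shared promoters. No test was run, because members, lists and motifs were chosen with earlier results of these data known. The text names all 10 genes and every gene of both further lists with a promoter peak. It also names neighbours that start within 500 bp of the IDR summits of the 10 genes, except some pre-mod(mdg4) genes. Of the 26 names of the first list, CG9740 is Ibf2, already listed, and vfl is now zld. Alternatives were other windows, lists, overlap rules, start sites and motif windows.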

Additional observations from a re-analysis of the deposited data

How the results depend on the processing

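The 4 genes with promoter peaks were counted in each of 7 alternatives: promoter windows of 250 bp and of 1000 bp, IDR peaks at or above the median signal, each replicate alone, overlap by peak region, and 1 start site per gene. The count ran from 4 to 5, with mod(mdg4) added at 1000 bp. The count of genes with a peak in the gene or at a start ran from 5 to 6 in these. The matching share of all genes was computed for the main setting only (22.9%). The 5703 strongest pooled peaks are the IDR peaks themselves, so taking them in place of the IDR list could change nothing and is not counted. With each peak given only to the nearest start, the counts were 1 (Chro) and 2 (Chro and mod(mdg4)). The share of all protein-coding genes with a promoter peak was then 16.7%. At Cp190, Dref and pzg a neighbour's start was nearer to the IDR summit. Of 80 calls for single genes, 74 did not change. The share of all protein-coding genes with a promoter peak was 11.1% among the stronger peaks, where the list is shorter, and between 16.7% and 23.4% otherwise. Leaving out a replicate gave 5 and 5 genes at promoters, against 19.1% to 20.5% of all genes, and 6 and 6 with gene bodies. Member summits with any motif rose from 3 to 5 of 8 within 100 bp of the summit in place of 50 bp. The share of all IDR summits with any motif was not computed. For each motif that share also rose with the window, for CGATA from 11.9% to 23.0%. Matching within 50 bp and 200 bp gave 6 and 8 peaks matched in both replicates, against 7. The eighth, the weaker Dref peak, was matched to the replicate 3 summit that the stronger one already had, so 7 separate summits stood behind the 8. Peaks near another gene stayed at 7 of 8 with 250 and 1000 bp. In mod(mdg4) the strongest peak and the second one were counted only through pre-mod(mdg4) genes inside it. The matching share of all IDR summits was not computed. No paired analysis was possible because there is 1 group. Depth is unknown, so the absence of a peak at ZIPIC says only that none was listed.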
